A study of Mus musculus with 12 samples.

Results

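Thy1 encodes a glycoprotein anchored to the surface of mature neurons, and its promoter is widely used to drive transgenes in neurons of the mouse brain. Here the 12 hippocampal RNA-seq libraries of the series were divided by their own Thy1 level, not by their labels: 6 libraries were chosen by Thy1 counts per 1e+06 counts of the library (CPM) of over 1500, and the other 6 held less. The series labels 3 libraries each as WT, Kcnip3 KO (Kcnip3-/-), 5xFAD and Kcnip3 KO-5xFAD, all from dissected hippocampus of adult mice, taken from the hemisphere opposite to one used for proteomics. Kcnip3 encodes KChIP3, a neuronal calcium sensor that binds Kv4 potassium channels and DNA, and the Kcnip3 KO and Kcnip3 KO-5xFAD groups share its deletion. 5xFAD mice carry human transgenes with mutations of familial Alzheimer's disease under the mouse Thy1 promoter, which is active mainly in neurons, and they develop amyloid plaques. The sources used here do not give exact ages or sex, or say that libraries with the same label came from different animals, so p-values measure only the spread between libraries.

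The 6 libraries with high Thy1 were the 3 labelled 5xFAD, 2 labelled Kcnip3 KO-5xFAD (replicates 1 and 3) and 1 labelled WT (replicate 3). The other 6 were the 3 labelled Kcnip3 KO, 2 labelled WT (replicates 1 and 2) and 1 labelled Kcnip3 KO-5xFAD (replicate 2). Thus 10 libraries had the Thy1 side that their 5xFAD label would give, and 2 did not. The split comes from a measured value, so the sides are not genotypes of the study, Thy1 itself is described without a test, and the p-values below take the split as given.

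Around amyloid plaques, microglia shift from a resting state to one with high Trem2, Cst7, Itgax and Clec7a, a change that depends on the lipid receptor TREM2 and its adaptor TYROBP. Astrocytes nearby raise the intermediate filament protein GFAP, and complement and antigen presentation genes are known to rise as well. APP, the precursor from which secretases cut the amyloid peptide, is by contrast abundant in neurons.

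Thy1 (ENSMUSG00000032011, chromosome 9, 44043384 to 44048579 on the plus strand of GRCm38) stood at 770, 887 and 2322 CPM in the libraries labelled WT 1, 2 and 3. The libraries labelled Kcnip3 KO held 765, 808 and 848 CPM, and those labelled 5xFAD held 2890, 3898 and 2880 CPM. Kcnip3 KO-5xFAD 1, 2 and 3 held 3418, 908 and 2634 CPM. The high side had a median of 2885 CPM and a mean of 3007 ± 566 (SD, n = 6), and the low side a median of 828 and a mean of 831 ± 60.01 (SD, n = 6). The high values are thus 5 libraries labelled with 5xFAD and 1 without, with no overlap by construction. The library labelled WT 3 was the one just above the threshold and Kcnip3 KO-5xFAD 2 the one just below it, and any threshold between their values gives the same sides.

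**Figure D1:**
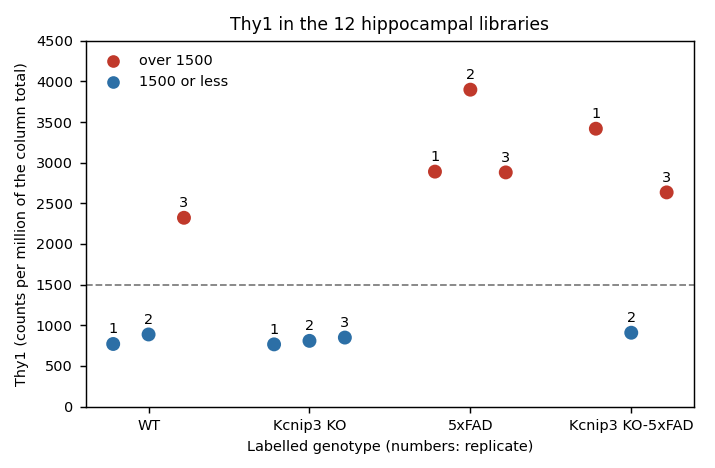
Thy1 in CPM of the column total (vertical axis) for each of the 12 libraries, by labelled genotype, with the replicate number beside each point and the threshold of 1500 dashed. The 6 libraries above the line sit between 2322 and 3898 and include the library labelled WT 3, and the 6 below sit between 765 and 908 and include the library labelled Kcnip3 KO-5xFAD 2.

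Kcnip3, the targeted gene, went with the knockout label in both of these libraries, at 162 in the library labelled WT 3 and 68.7 in Kcnip3 KO-5xFAD 2 (as CPM, which here and below is scaled by TMM, the trimmed mean of M-values). The other libraries labelled with intact Kcnip3 held 138 to 160 CPM, and the others labelled knockout held 63.4 to 125 CPM, the highest in Kcnip3 KO 3. Library totals ran from 7664407 to 11310714 counts, so 3 counts correspond to 0.265 to 0.391 CPM of the total, a floor that covers counting error only. The mitochondrial share was 3.58 to 4.96% on the high side and 3.84 to 5.47% on the low side, and these ranges overlap. Hippocampal neuron markers summed to 1460 to 1930 CPM on the high side and 1430 to 1920 on the low side. Their median log2 difference from the low-side libraries labelled without 5xFAD was lowest of the 12 libraries in WT 3, at -0.353. It was highest in Kcnip3 KO-5xFAD 2, at 0.435. Oligodendrocyte and myelin genes were also lowest in WT 3, with a sum of 4040 CPM and a median difference of -0.699. Choroid plexus and ependymal markers summed to 132 to 9130 CPM on the high side and 471 to 4630 on the low side. They were lowest in the libraries labelled WT 3, 5xFAD 2, Kcnip3 KO-5xFAD 1 and Kcnip3 KO-5xFAD 2, at 132, 264, 414 and 471 CPM, so both libraries whose Thy1 went against the label are among these 4, and the part of tissue composition in their other values was not tested.

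Of 15904 genes tested with the knockout label as a covariate, 260 (1.63%) were higher in the libraries with over 1500 Thy1 CPM and 0 (0%) were lower, at an adjusted p under 0.05 in edgeR's quasi-likelihood test with Benjamini-Hochberg adjustment, here called higher or lower. The higher genes were led by transcripts of plaque-associated microglia, among them Cst7, Itgax, Clec7a and the chemokine genes Ccl3, Ccl4 and Ccl6. All of these but Ccl6 were at most 1.00 CPM in any low-side library. They therefore passed the expression filter only through the side where they are high. In bulk tissue, more cells of a type and more RNA of these genes per cell cannot be told apart. Complement, Fc receptor, lysosomal and reactive astrocyte genes were also called, whereas 0 members of 12 lists of neuronal, oligodendroglial, vascular, choroid plexus, meningeal, blood and amyloid-processing genes were. At an unadjusted p under 0.05 there were 868 higher and 262 lower genes, and the smallest adjusted p among lower genes was 0.0572, for Vsnl1, a neuronal calcium sensor (log2 fold change -0.37 ± 0.09). DESeq2 called 342 genes higher and 7 lower. The 6 libraries of one side lay entirely above the 6 of the other for 228 genes (1.43%) and entirely below for 8 (0.0503%), and 189 of the 260 called genes were among the 228. The median log2 fold change over all tested genes was -0.00439. The count depended on single libraries: it was 131 without Kcnip3 KO-5xFAD 1 and 172 without WT 2, and 411 without WT 3. Lower calls numbered 17 without WT 3 and 1 without Kcnip3 KO-5xFAD 3.

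The 3 called genes with the largest fold differences at a mean of at least 1 CPM, Cst7, Itgax and Clec7a, and the receptor gene Trem2 separated the 2 sides in every library, which for the first 3 was a condition of being named. Their promoters are shown because these genes moved together across the split, and because PU.1, the lineage factor of microglia, binds sites with a GAGGAA core. Each sequence is the 250 bases before the transcription start in RefSeq (GRCm38.p6), 5′ to 3′ on the gene's strand, with a GAGGAA core, or its reverse complement TTCCTC, in capitals.
Cst7 (chr2:150570165-150570414, plus strand): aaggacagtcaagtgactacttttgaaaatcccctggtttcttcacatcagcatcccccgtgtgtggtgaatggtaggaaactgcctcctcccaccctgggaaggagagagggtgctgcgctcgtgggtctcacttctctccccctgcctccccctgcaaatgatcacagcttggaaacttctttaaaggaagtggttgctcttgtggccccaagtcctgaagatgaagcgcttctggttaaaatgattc
Itgax (chr7:128129300-128129549, plus strand): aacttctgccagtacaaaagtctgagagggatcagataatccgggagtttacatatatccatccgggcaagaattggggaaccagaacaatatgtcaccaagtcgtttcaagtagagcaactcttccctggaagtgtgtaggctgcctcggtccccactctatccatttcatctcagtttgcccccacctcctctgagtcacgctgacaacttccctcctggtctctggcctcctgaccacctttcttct
Clec7a (chr6:129472780-129473029, minus strand): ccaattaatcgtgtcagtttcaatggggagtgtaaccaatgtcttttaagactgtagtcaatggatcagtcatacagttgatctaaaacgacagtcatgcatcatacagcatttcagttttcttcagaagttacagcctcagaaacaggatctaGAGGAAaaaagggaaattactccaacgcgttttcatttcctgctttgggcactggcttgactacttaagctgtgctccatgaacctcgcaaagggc
Trem2 (chr17:48346151-48346400, plus strand): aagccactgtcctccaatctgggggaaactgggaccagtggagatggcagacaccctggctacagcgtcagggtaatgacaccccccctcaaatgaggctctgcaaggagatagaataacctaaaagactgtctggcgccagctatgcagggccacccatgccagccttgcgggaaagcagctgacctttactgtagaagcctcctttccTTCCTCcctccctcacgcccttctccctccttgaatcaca

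The Trem2 promoter held the core as TTCCTC, 34 bases from the start, and the Clec7a promoter held it as GAGGAA, 90 bases from the start. The Cst7 and Itgax windows held no match, which says only that these letters are not in these 250 bases. A match of this length is common: 28.3% of the 32851 RefSeq windows of 300 bases (250 before to 50 after the start) held GAGGAA on either strand. The longer GAGGAAGT, which contains the shorter motif, was in 3.2% of windows and in none of these 4. Only 195 of the 260 called genes (75%) had a window, under the 80% set as a minimum, so the called genes were not compared with the rest.

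Cst7, which encodes the cysteine protease inhibitor cystatin F, stood at 69.0, 121 and 88.8 CPM in the libraries labelled 5xFAD, at 66.6 and 55.9 in Kcnip3 KO-5xFAD 1 and 3, and at 26.5 in the library labelled WT 3. On the low side, WT 1 and 2 held 0 and 0.319 CPM, the Kcnip3 KO libraries 0.105, 0 and 0.23, and Kcnip3 KO-5xFAD 2 held 1.00. The sides did not overlap, with WT 3 the lowest of the high side and Kcnip3 KO-5xFAD 2 the highest of the low side. The fitted log2 fold change was 7.86 ± 0.58 (SE; edgeR adjusted p = 6.2e-05), an estimate that depends on few low-side counts.

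Itgax, the integrin subunit CD11c, was at 16.9 to 27.9 CPM in the 5 high-side libraries labelled 5xFAD or Kcnip3 KO-5xFAD, 7.42 CPM in the library labelled WT 3, and 0 to 0.778 CPM on the low side (log2 fold change 5.76 ± 0.44). Clec7a, the beta-glucan receptor Dectin-1, was at 6.88 to 17.9 CPM in those 5 libraries, 5.12 CPM in WT 3 and 0.115 to 0.851 CPM on the low side (4.77 ± 0.43). For both genes WT 3 was again the lowest library of the high side, and the sides did not overlap. Trem2 stood at 154, 251 and 172 CPM in the libraries labelled 5xFAD, with 163 and 128 in Kcnip3 KO-5xFAD 1 and 3 and 70.1 in WT 3. On the low side WT 1 and 2 held 22.3 and 22.9 CPM of Trem2, the Kcnip3 KO libraries 19.7, 21.3 and 24.7, and Kcnip3 KO-5xFAD 2 held 26.2. Its sides averaged 157 ± 59.3 and 22.8 ± 2.36 CPM (SD, n = 6 each), a log2 fold change of 2.75 ± 0.26 (edgeR adjusted p = 0.000153). WT 3 thus lay between the low side and the 5xFAD libraries, and Kcnip3 KO-5xFAD 2 lay close above the highest of the Kcnip3 KO libraries.

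All 33 plaque-associated microglial genes had a higher mean on the high side and 25 of them were called, against 1.63% of all genes, with a median log2 fold change of 1.64 beside -0.00439 over all genes. This list, like the others, was chosen with earlier results of these data known, so its share is no independent support. Among the chemokines, Ccl6 was at 12.6 to 24.0 CPM on the high side and 1.25 to 3.56 CPM on the low side (3.17 ± 0.24, edgeR adjusted p = 1.8e-05), one of the smallest adjusted p-values of the fit. Ccl3 (3.69) and Ccl4 (4.60), which attract myeloid cells, were at 2.61 to 13.3 and 1.25 to 4.96 CPM on the high side and at most 0.966 and 0.242 CPM on the low side. Hcar2, a receptor for hydroxycarboxylic acids and for niacin, was at 1.25 to 3.97 CPM against at most 0.362 CPM (4.05), and the inhibitory receptor gene Lilrb4a at 0.851 to 3.22 against at most 0.425 CPM (3.11). The other genes among the 12 largest differences were Pdcd1, the checkpoint receptor PD-1 (4.05), Ifi204, of the interferon-inducible p200 family (3.52), Tgm1, a transglutaminase (3.49), and Asb10, an ankyrin repeat and SOCS box protein (3.21). All 4 had high-side maxima under 8 CPM, and lack of overlap between the sides was a condition of being among the 12. Of the 12, all but Ccl6 passed the expression filter only through high-side libraries.

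Homeostatic microglial genes, which mark resting microglia, were also higher: 13 of 19 were called, 18 had a higher mean, and the median log2 fold change was 0.913. Csf1r, the receptor that microglia need for survival, was at 270, 285 and 263 CPM in 5xFAD, 278 and 221 in Kcnip3 KO-5xFAD 1 and 3, and 169 in WT 3, against 111 to 137 CPM on the low side (1.02 ± 0.12). Siglech, a sialic acid binding lectin, was at 21.4 to 34.1 against 11.9 to 15.7 CPM (1.12). The transcription factor gene Irf8 was at 12.4 to 37.3 against 6.48 to 10.03 CPM (1.77), with WT 3 at the lower end. These 3 genes separated the sides. Of the 20 blood cell and border macrophage markers 12 were tested and 0 called, with sums of 87.4 to 148 CPM on the high side and 68.2 to 207 CPM on the low side. The T cell markers Cd3e, Cd3g and Cd8a and the monocyte marker Ccr2 were among the 8 too low to be tested.

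Complement genes were higher for 12 of 13 tested members, of which 6 were called (median 1.22). C4b, a precursor of the classical pathway's C3 convertase, stood at 342, 340 and 410 CPM in 5xFAD, 412 and 279 in Kcnip3 KO-5xFAD 1 and 3, and 143 in WT 3. Its low-side libraries held 51.4 to 78.6 CPM, with Kcnip3 KO-5xFAD 2 at 66.6, and the log2 fold change was 2.26 ± 0.23 (edgeR adjusted p = 0.000181). C1qa (1.82) and C1qb (1.73), subunits of the initiating complex, were at 126 to 382 and 136 to 388 CPM on the high side and at 62.5 to 87.6 and 76.4 to 101 CPM on the low side. C3ar1, the receptor for the C3a fragment, was at 5.64 to 13.4 against 1.59 to 3.62 CPM (1.97). In each of these 4 genes the library labelled WT 3 was the lowest of the high side without reaching the low side.

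Fc receptors bind antibodies and Toll-like receptors bind microbial or damage signals, and the list of both also holds signalling partners such as Myd88 and Syk. All 16 tested members had a higher mean on the high side, 11 were called, and the median was 1.56. Fcgr3, an activating IgG receptor, was at 51.6 to 65.4 CPM in the 5 high-side libraries labelled with 5xFAD, 32.5 CPM in WT 3 and 15.3 to 20.9 CPM on the low side (1.58 ± 0.15). The inhibitory IgG receptor Fcgr2b (2.04), the lipopolysaccharide co-receptor Cd14 (2.24) and Tlr2 (2.17) were at 11.2 to 26.8, 8.67 to 18.1 and 2.92 to 7.21 CPM on the high side. Their low-side values were 4.11 to 5.74, 2.20 to 3.80 and 0.744 to 1.49 CPM, so none of the 3 overlapped.

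For several antigen presentation and interferon response genes the library labelled WT 3 lay with the low side. All 19 antigen presentation genes had a higher mean on the high side but 5 were called (median 0.947), and of 27 interferon response genes, again all higher in mean, 3 were called (median 1.03). H2-K1, a class I heavy chain, was at 104 to 150 CPM in the 5 high-side libraries labelled with 5xFAD but at 65.1 in WT 3, beside 71.8 and 62.0 in the other libraries labelled WT and 63.7 in Kcnip3 KO-5xFAD 2. The sides overlapped, and the log2 fold change was 1.02 ± 0.19 (edgeR adjusted p = 0.0137), or 0.88 (adjusted p = 0.0842) without Kcnip3 KO-5xFAD 1. Psmb8, an immunoproteasome subunit, stood at 10.1 in WT 3, 21.2 to 26.9 CPM in the other 5 and 6.69 to 11.3 CPM on the low side (1.26). H2-D1, the other classical class I heavy chain, did not overlap between the sides but came close, at 86.8 CPM in WT 3 beside 85.6 CPM in WT 1 (1.28). Class I genes, like C4b and Ftl1, have near-identical relatives in the genome, and how shared reads were counted is not stated, so their single values are uncertain. Ctss, a protease that processes the class II invariant chain and is abundant in microglia, separated the sides at 166 to 382 against 66.6 to 99.0 CPM (1.75). Bst2, which tethers budding virus, was at 7.10 CPM in WT 3, 17.0 to 37.8 CPM in the other 5 and 4.71 to 10.1 CPM on the low side (1.53, edgeR adjusted p = 0.0274). Trim30a (1.55) and Ifi27 (0.78), both induced by interferon, were the other 2 calls of that list, and Bst2, Trim30a and Ifi27 each lost the call in most of the fits that left out 1 library, with the largest adjusted p (0.127, 0.225 and 0.226) without Kcnip3 KO-5xFAD 1.

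Lysosomal genes, which serve the breakdown of engulfed material, were higher in mean for all 23 tested members, with 10 called and a median of 0.477. Lyz2, a lysozyme of myeloid cells, was at 55.1 CPM in WT 3, 88.5 to 135 CPM in the other 5 high-side libraries and 12.3 to 25.1 CPM on the low side (2.43 ± 0.22). Laptm5 (1.60), a lysosomal membrane protein of immune cells, and the hydrolases Gusb (1.05) and Hexa (0.98) were at 76.9 to 222, 29.4 to 66.4 and 108 to 204 CPM against 36.3 to 63.0, 21.1 to 26.2 and 69.7 to 85.7 CPM. None of these 4 overlapped.

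Reactive astrocyte genes had 7 of 22 tested members called and 20 higher in mean (median 0.849). Gfap stood at 2189, 2719 and 2360 CPM in 5xFAD, 2872 and 1571 in Kcnip3 KO-5xFAD 1 and 3, and 896 in WT 3. On the low side WT 1 and 2 held 427 and 375 CPM of Gfap, the Kcnip3 KO libraries 340, 589 and 839, and Kcnip3 KO-5xFAD 2 held 551. The sides did not overlap, though WT 3 and Kcnip3 KO 3 were close, and the log2 fold change was 2.14 ± 0.31 (edgeR adjusted p = 0.00214). Ggta1, a galactosyltransferase, was at 9.50 to 14.9 against 3.14 to 6.67 CPM (1.16), and Aspg, an asparaginase, at 13.3 to 31.8 against 3.56 to 13.9 CPM with overlap (1.64). Of 18 genes of astrocyte identity and transport 1 was called, the water channel gene Aqp4, at 58.7 to 89.0 against 39.9 to 73.3 CPM (0.49, edgeR adjusted p = 0.0381), a call that most single-library omissions removed (adjusted p = 0.236 without Kcnip3 KO-5xFAD 1).

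**Figure D2:**
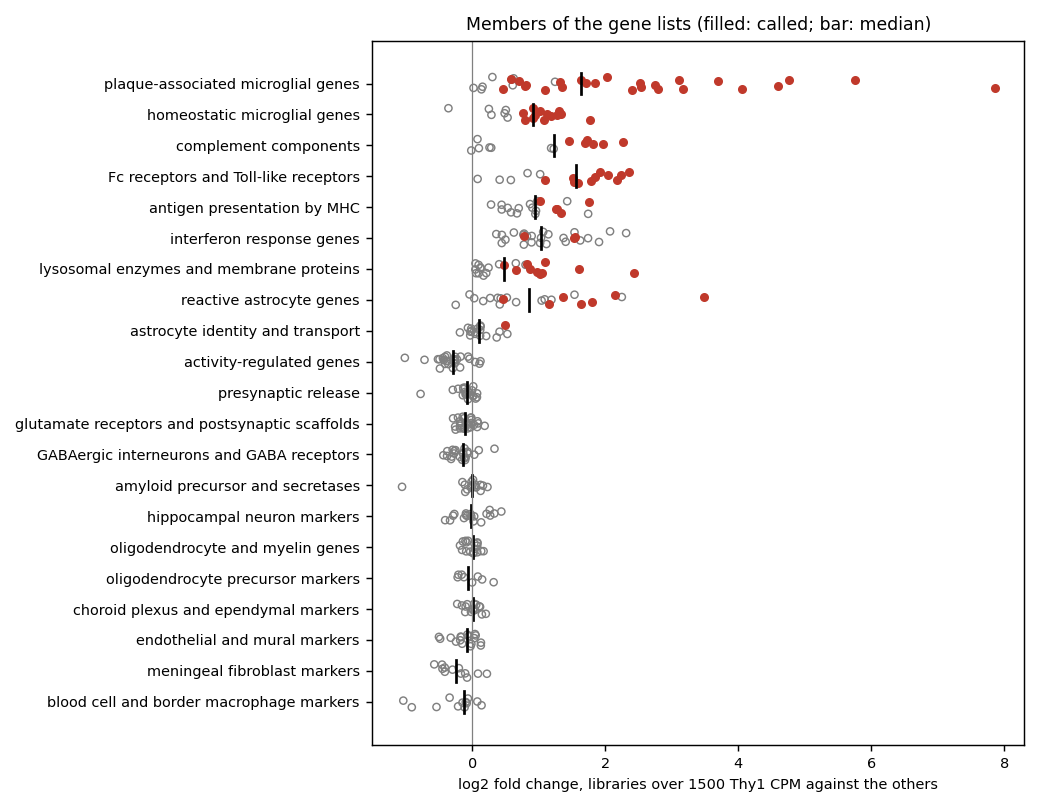
Log2 fold change of each tested member of 21 gene lists (horizontal axis, libraries with over 1500 Thy1 CPM against the others), filled red where called, with a black bar at each list's median. The plaque-associated microglial genes reach 7.86 with a median of 1.64, and the 12 lists from the activity-regulated genes downward hold no filled point.

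No neuronal list held a call, and their medians were below 0. Of 28 activity-regulated genes 25 had a lower mean on the high side (median -0.284), as did 19 of 22 genes of GABAergic interneurons and GABA receptors (-0.148), 21 of 26 glutamate receptor and scaffold genes (-0.107) and 15 of 21 presynaptic genes (-0.082). Hippocampal neuron markers were near even, with 10 of 18 lower (-0.0223). Over all tested genes 48.8% were higher in mean on the high side, and the rest lower. The MAP kinase phosphatase gene Dusp6 (-0.39, edgeR adjusted p = 0.253) and Scg2, a secretory granule protein (-0.41, adjusted p = 0.618), were the activity-regulated genes with the smallest p. Snap25, a SNARE protein of vesicle release, was at 965, 823 and 875 CPM in 5xFAD and 1188 and 1126 in Kcnip3 KO-5xFAD 1 and 3, but at 1513 CPM in the library labelled WT 3, beside 1536 and 1284 in WT 1 and 2. On the low side Kcnip3 KO-5xFAD 2 was the lowest library at 1065 CPM, and the Kcnip3 KO libraries held 1197 to 1449 CPM. The 2 libraries thus had the Snap25 level of their label, and the difference between the Thy1 sides was -0.29 ± 0.15 (edgeR adjusted p = 0.763). Other members with values were Slc17a6, the vesicular glutamate transporter VGLUT2 (-0.78), the receptor subunit genes Grin2a (-0.22), Gria3 (-0.26) and Gabbr2 (-0.30), and the interneuron gene Pvalb (-0.38), none of them called.

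Of 17 genes of the amyloid precursor and its processing 0 were called (median -0.0091). App was at 1186 and 1293 CPM in WT 1 and 2 and 1260 in the library labelled WT 3, at 1248 to 1272 in Kcnip3 KO, at 964 to 1133 in 5xFAD, and at 1026, 999.6 and 1139 in Kcnip3 KO-5xFAD 1, 2 and 3. All 6 libraries labelled with 5xFAD lay below all 6 labelled without it, as did 1.03% of all tested genes (1.54% lay above), and the Thy1 sides overlapped (-0.15 ± 0.09, edgeR adjusted p = 0.849). These are values of the mouse gene, and how reads of the human transgenes were counted is not stated in these sources. Mme, which encodes the amyloid-degrading protease neprilysin, was at 0.998 to 3.03 against 2.42 to 4.25 CPM and was not called (-1.06, edgeR adjusted p = 0.0806). Mme was called lower on the same split with DESeq2 (adjusted p = 0.0282) and in edgeR with no filter (adjusted p = 0.049), with Thy1 as a continuous term (0.0174), without WT 3 (0.0122) and in the 10 libraries (0.0188). Myelin, oligodendrocyte precursor, choroid plexus, and endothelial and mural lists had medians of 0.0156, -0.0655, 0.0162 and -0.0755, and meningeal fibroblast and blood lists had -0.251 and -0.133, with 0 calls in each.

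The 3 tested genes on each side of Thy1 on chromosome 9 showed no call. Oaf (0.14), Gm36855 (0.36) and Nectin1 (-0.03), which encodes a cell adhesion molecule, lie before Thy1, and the deubiquitinase gene Usp2 (-0.08), the ubiquitin ligase gene Rnf26 (0.08) and Mfrp (0.01), a membrane frizzled-related gene, lie after it. Rnf26 and Mfrp overlap, so their counts may share reads. Usp2, the nearest after Thy1 at 44067021 to 44095627, was at 55.6 to 72.4 CPM on the high side and 63.3 to 76.6 CPM on the low side. Mfrp ranged from 0.418 to 44.7 CPM on the high side, low in the same 3 high-side libraries that were low in choroid plexus markers.

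To ask which of the 2 libraries' genes went with Thy1 and which with the label, the 5xFAD label was also fitted in the 10 libraries where both match, leaving out WT 3 and Kcnip3 KO-5xFAD 2. Of 16075 genes tested in these, 481 (2.99%) were higher in 5xFAD and 66 (0.411%) lower. Single libraries moved these counts: higher genes numbered 270 without Kcnip3 KO-5xFAD 1 and 302 without WT 2. Lower genes numbered 6 without WT 1, 8 without Kcnip3 KO-5xFAD 1, 18 without Kcnip3 KO 1, 19 without 5xFAD 3, 20 without WT 2, 139 without Kcnip3 KO 2 and 203 without 5xFAD 1. Fitted by label over all 12 libraries, 698 genes (4.39%) were higher and 429 (2.7%) lower, and leaving out 1 library at a time gave 350 (without 5xFAD 3) to 901 (without 5xFAD 1) higher and 74 (without 5xFAD 3) to 781 (without Kcnip3 KO 2) lower. These fits share their libraries with the Thy1 split, from which they differ in the place of 2 libraries. Cst7 and Ccl6 were called by the split but not by the label (edgeR adjusted p = 0.0575 and 0.0514 by label). Apoe, the lipid-carrying apolipoprotein E, Clu, the chaperone clusterin, Cst3, the protease inhibitor cystatin C, and Ftl1, the ferritin light chain, were called by label but not by the split (edgeR adjusted p by split 0.15, 0.158, 0.101 and 0.0557). With DESeq2 the split called all 4 (adjusted p = 0.0293, 0.0387, 0.0124 and 0.00612), and with the replicate block in edgeR it called Apoe (adjusted p = 0.0304), Cst3 (0.0291) and Ftl1 (0.00682). Whether the 2 groupings differ for these genes was not tested.

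**Figure D3:**
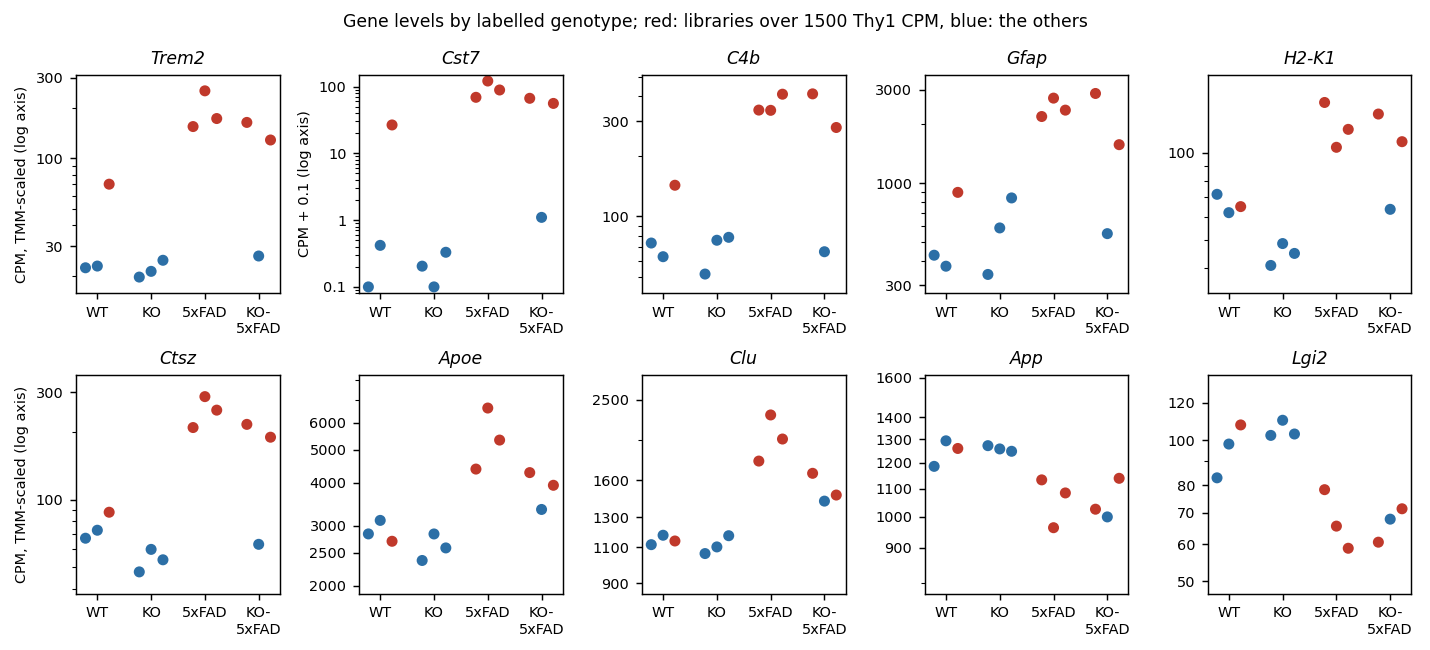
TMM-scaled CPM (log axes; Cst7 as CPM + 0.1) of 10 genes in each library by labelled genotype, red for libraries over 1500 Thy1 CPM and blue for the others. Trem2, Cst7, C4b and Gfap place the red WT point above the blue WT points and the blue Kcnip3 KO-5xFAD point near the controls, and Clu, App and Lgi2 place both points with their label. Apoe places the red WT point with its label and the blue Kcnip3 KO-5xFAD point between the labels, at 3345 CPM.

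Each of the 2 libraries was then placed between the mean of libraries without 5xFAD (position 0) and with it (position 1) at the same knockout label, on log2 CPM with a prior count of 2. These positions use values that the 10-library fit did not, and they are 1 library each, so they carry no test. Thy1 itself stood at 0.735 in the library labelled WT 3 and 0.111 in Kcnip3 KO-5xFAD 2. Over the 477 genes called higher that also passed the 12-library filter, WT 3 had a median position of 0.243 and was past the midpoint of 0.5 in 114 (23.9%). Kcnip3 KO-5xFAD 2 also had a median of 0.243 and was at or below the midpoint in 350 (73.4%). Both libraries went with their Thy1 side in 106 genes (22.2%) and both with their label in 119 (24.9%), and both were nearer the libraries without 5xFAD in 244 (51.2%). Over the 10218 tested genes with the same sign in both knockout backgrounds, called or not, WT 3 was past the midpoint in 23.1% and Kcnip3 KO-5xFAD 2 at or below it in 37.4%. Among those genes both libraries went with their Thy1 side in 11.8% and with their label in 51.4%, and both were nearer the libraries without 5xFAD in 25.6%. The share of WT 3 among the genes called higher was thus near that over all these genes, whereas that of Kcnip3 KO-5xFAD 2 was larger, with no test of either.

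The positions of these 2 libraries were also taken list by list, without a test between lists. For the 28 plaque-associated microglial genes called in the 10 libraries, WT 3 had a median position of 0.406 with 12 past the midpoint, and Kcnip3 KO-5xFAD 2 a median of 0.139 with 26 at or below it. Fc and Toll-like receptor genes (12 called) placed WT 3 at a median of 0.522 and reactive astrocyte genes (9 called) at 0.523, with Kcnip3 KO-5xFAD 2 at 0.227 and -0.00183. The 6 complement genes placed them at 0.378 and 0.0918, and the 13 lysosomal genes at 0.146 and 0.197. Antigen presentation genes (14 called) placed WT 3 at -0.356, with 0 of 14 past the midpoint, and the 7 interferon response genes at -0.309, so for these lists WT 3 lay on the far side of WT 1 and 2, while Kcnip3 KO-5xFAD 2 lay at 0.145 and 0.0401.

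**Figure D4:**
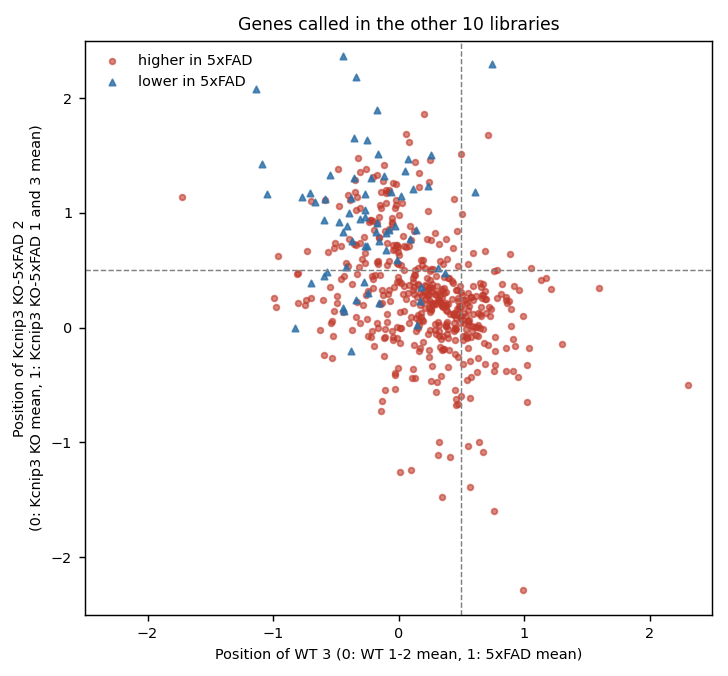
Position of the library labelled WT 3 (horizontal) and of Kcnip3 KO-5xFAD 2 (vertical) between the means of libraries without (0) and with 5xFAD (1), for each gene called higher (red circles, n = 477) or lower (blue triangles, n = 66) in the other 10 libraries, with dashed lines at the midpoint of 0.5. Most red points lie below the horizontal line, 350 of 477, and 49 of 66 blue triangles lie at the upper left, where both libraries are nearest to their label.

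Both libraries lay mostly nearer to their label in the genes lower in 5xFAD. Of the 66 called lower in the 10 libraries, 49 (74.2%) had both libraries nearer to their label and 0 had both nearer to their Thy1 side, with median positions of -0.267 for WT 3 and 0.928 for Kcnip3 KO-5xFAD 2. As over all same-sign genes the label share was 51.4%, a high share is also present outside the called genes. The genes named here were chosen after their positions were seen. Lgi2, a secreted neuronal protein of the leucine-rich glioma inactivated family, stood at 83.1, 98.0 and 107.7 CPM in WT 1, 2 and 3, and the Kcnip3 KO libraries held 102 to 110. The 5xFAD libraries held 58.8 to 78.4 CPM and Kcnip3 KO-5xFAD 1, 2 and 3 held 60.5, 67.8 and 71.3, so the labels did not overlap (-0.59 ± 0.08 by label, edgeR adjusted p = 0.00265) and the Thy1 sides did (-0.38 ± 0.17, adjusted p = 0.628). Esrrg, an orphan nuclear receptor, was at 8.46 CPM in WT 3, 6.59 to 9.06 CPM in the other libraries labelled without 5xFAD, 4.22 CPM in Kcnip3 KO-5xFAD 2 and 2.41 to 4.45 CPM in the other libraries labelled with it. Cacnb4, a calcium channel subunit, Ppm1l, a protein phosphatase, Nap1l2, a neuronal nucleosome assembly protein, and Pam, which amidates neuropeptides, were the other 4 of these, with log2 fold changes by label of -0.53, -0.47, -0.53 and -0.44.

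Among genes higher in 5xFAD, those of both libraries nearer to the label included Apoe and Clu. Clu was at 1117, 1177 and 1140 CPM in WT 1, 2 and 3, 1063 to 1174 in Kcnip3 KO, 1778 to 2298 in 5xFAD, and 1661, 1423 and 1472 in Kcnip3 KO-5xFAD 1, 2 and 3, with no overlap between labels (0.64 ± 0.09 by label, edgeR adjusted p = 0.00222). For Apoe the library labelled WT 3 held 2701 CPM beside 2838 and 3108 in WT 1 and 2, and Kcnip3 KO-5xFAD 2 held 3345 beside 4285 and 3935 in Kcnip3 KO-5xFAD 1 and 3. Kcnip3 KO-5xFAD 2 therefore held the lowest Apoe of the 6 libraries labelled with 5xFAD, above all 6 labelled without it, at a position of 0.5545. Cst3 stood at 1806 CPM in WT 3, beside 1688 and 1830 in WT 1 and 2. In Kcnip3 KO-5xFAD 2 it stood at 2165, beside 2789 and 2213 in Kcnip3 KO-5xFAD 1 and 3. Ftl1 was at 276 CPM in WT 3, beside 250 and 279, and at 314 in Kcnip3 KO-5xFAD 2, beside 384 and 338. For both genes Kcnip3 KO-5xFAD 2 was the lowest of the 6 libraries labelled with 5xFAD, above all 6 labelled without it. Sh3bp2, an adaptor protein, Hk3, a hexokinase of myeloid cells, Cebpa, a myeloid transcription factor, and Hhex, a homeobox factor, also had both libraries nearer to the label. Several of these positions lay close to the midpoint of 0.5. Kcnip3 KO-5xFAD 2 stood at 0.519, 0.594, 0.691 and 0.563 for these genes in turn, and WT 3 at 0.21, 0.383, 0.433 and -0.266. The first 3 of these genes were called by the Thy1 split too (0.96, 1.44 and 0.99). Those 3 calls rested on single libraries: without Kcnip3 KO-5xFAD 1 the edgeR adjusted p was 0.107 for Sh3bp2, 0.0995 for Hk3 and 0.137 for Cebpa, without WT 2 it was 0.0708, 0.0665 and 0.101, and without WT 1 it was 0.0831 for Sh3bp2 and 0.101 for Cebpa. Genes called higher by label in the 12 libraries had a median transcript length of 2035 nt and GC content of 53%, those called lower 4869 nt and 46.2%, and those called higher by the Thy1 split 2713.5 nt and 51.5%, beside 3273 nt and 49.9% over all tested genes; the part of length and GC content in these calls was not tested.

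**Figure D5:**
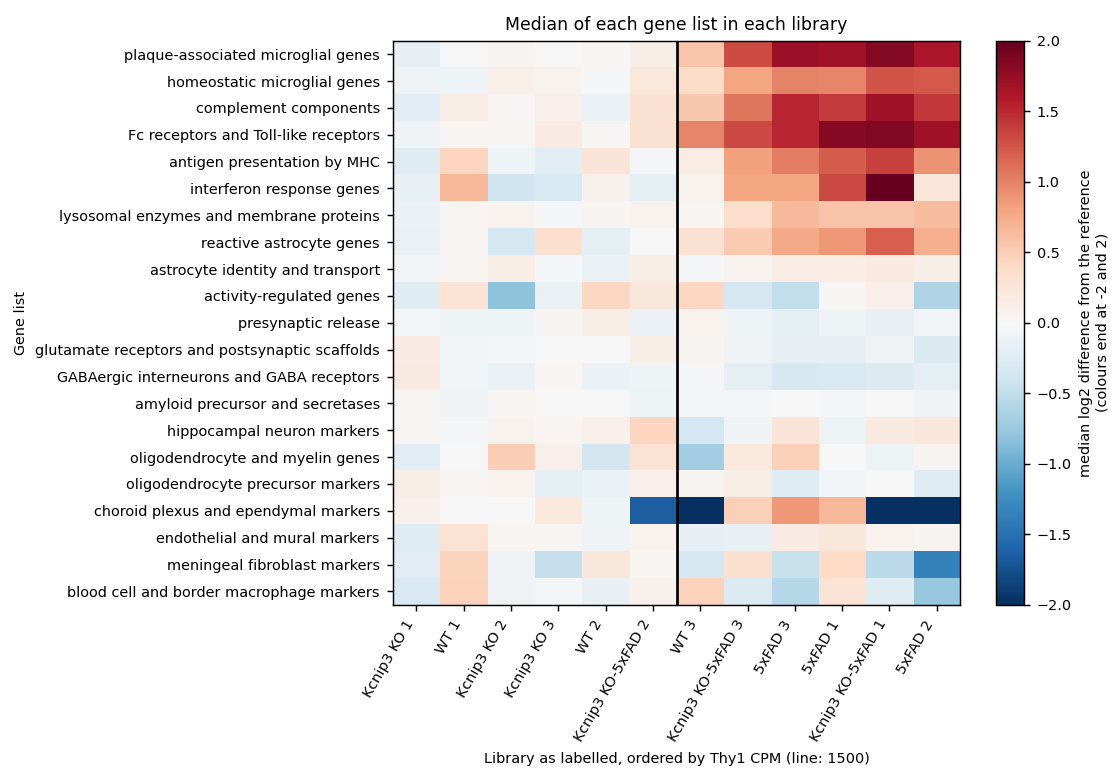
Median log2 difference of each gene list (rows) in each library (columns, ordered by Thy1 CPM, with a line at 1500) from the mean of the 5 low-side libraries labelled without 5xFAD, with colours ending at -2 and 2. Microglial rows are red right of the line and palest in WT 3 (0.557 for plaque-associated genes, against 0.133 in Kcnip3 KO-5xFAD 2 and 1.3 to 1.84 in the other 5 high-side libraries), and the choroid plexus row is blue in 4 libraries, 3 of them right of the line.

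Fitted within one knockout label, the split gave 0 higher and 0 lower genes (0% each) of 15295 in the 6 libraries labelled with intact Kcnip3, where WT 3 is 1 of 4 on the high side, with a smallest adjusted p of 0.0859 and 512 genes at an unadjusted p under 0.05. In the 6 libraries labelled Kcnip3 knockout it gave 146 higher (0.959%) and 1 lower (0.00657%) of 15222. The high side there is Kcnip3 KO-5xFAD 1 and 3. Of the 33 plaque-associated microglial genes, 25 were tested in the knockout-labelled libraries, against all 33 in the intact ones. Cst7, Itgax, Clec7a, Ccl4, Pdcd1, Hcar2, Ccl3, Ifi204, Tgm1, Asb10 and Lilrb4a were not tested in the knockout-labelled libraries. There only Kcnip3 KO-5xFAD 1 and 3 reached the level of the expression filter, which asks for 3 libraries. Cst7, for example, stood at 66.6 and 55.9 CPM in these. The 146 calls thus leave out the genes with the largest differences of the split. Side by side, Trem2 had a log2 fold change of 2.84 with intact Kcnip3 and 2.66 with the knockout label, Csf1r 1.08 and 0.95, and C4b 2.18 and 2.34. Gfap was at 2.35 and 1.93, and was not called in the knockout-labelled libraries (edgeR adjusted p = 0.153). Medians of the 19 antigen presentation genes were 0.541 with intact Kcnip3 and 1.39 with the knockout label, and those of the 19 homeostatic microglial genes 0.977 and 0.875. The test of the difference itself, the interaction of Thy1 side and knockout label, called 0 genes in edgeR and 0 in DESeq2 (smallest edgeR adjusted p = 1, and 318 of 15904 at an unadjusted p under 0.05). Bst2 (interaction 1.31) and Psmb8 (0.80), both low in WT 3, had larger differences with the knockout label that did not pass this test. Without Kcnip3 KO-5xFAD 3 the interaction called 5 genes.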

How the data were processed

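Per the labels' protocols, a TruSeq mRNA kit was used on total RNA of hippocampus. Reads were checked with FastQC 0.11.9, per the submitters' processing notes, which also list HISAT2 2.1.0, edgeR 3.38.4, R 4.2.1, the build mm10 and featureCounts. Strand setting and annotation are not stated there. The authors deposited raw read counts for 55385 genes, used for every comparison, and a table of log2 TPM, used only as an alternative. Symbols and positions came from GENCODE M21 on GRCm38, the assembly of mm10, and matched 55144 genes.

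Libraries were split at 1500 Thy1 CPM of the column total. Counts of all genes but Thy1 were fitted in edgeR 4.0.16 under R 4.3.3 with TMM scaling, the filterByExpr filter by labelled genotype, robust quasi-likelihood tests, the Thy1 side and the knockout label. The common biological coefficient of variation was 0.164. Genes were called at an adjusted p (Benjamini-Hochberg over all tested genes) under 0.05. The fit was also run on simulated counts with the common dispersion for every gene, no knockout effect and a split set in advance. These settings differ from the data, so nothing is drawn from that run here. Alternatives were DESeq2 1.42.0 or its size factors, other filters, limma 3.58.1 on log2 TPM, other covariates, groupings and sets of libraries.

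Genes were named by a rule: a few in every library, the 12 largest differences among called genes with a mean of at least 1 CPM and no overlap, for each list up to 4 called members by smallest p, or 2 members where it had none, and the 3 tested genes on each side of Thy1. The members, lists and rule were chosen with earlier results of these data known. Genes named for the position of 2 libraries, with Apoe, Clu and Vsnl1, were chosen after their values were seen. A few genes taken by this rule are not reported here. Promoter sequences came from RefSeq (GRCm38.p6).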

Additional observations from a re-analysis of the deposited data

Results flagged for a closer look

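Within each side of 6 libraries, the highest and lowest library of each named gene were compared with the others by Dixon's gap test, and 16 of 180 tested sides stood out. The nominal 5% of this test holds for independent groups. These genes share their libraries, each side mixes labels, and many genes were named for their values, so no excess can be read from the count. Esrrg, Hhex, Hk3 and Clu were named after the values of the libraries concerned were seen, so their presence here is no separate observation.

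The library labelled WT 3 stood apart on the high side in 4 genes. It was lowest for Pdcd1, at 1.149 CPM with the next library at 2.897, for Psmb8, at 10.13 with the next at 21.24, and for Hhex, at 1.358 with the next at 3.683. It was highest for Esrrg, at 8.46 CPM with the next at 4.445.

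Kcnip3 KO-5xFAD 2 stood apart on the low side in 9 genes. It was lowest for App, at 999.6 CPM with the next at 1186, and for Mfrp, at 2.445 with the next at 17.88. It was highest for Cst7, at 1 CPM with the next at 0.319, and for C1qb, at 100.7 with the next at 82.4. It was also highest for Tmem212 at 5.556 CPM, Slc2a1 at 158.2, Oaf at 22.56, Hk3 at 4.112 and Clu at 1423.

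In the other 3 cases a library labelled WT stood apart on the low side. WT 2 was highest for Siglech, at 15.74 CPM, and for Usp2, at 76.56, and WT 1 was lowest for Tlr2, at 0.7444.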

How the results depend on the processing

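With the Thy1 split, the count of higher genes stayed within 1.5 times of 260 under DESeq2 size factors (259), no filter (291), DESeq2 (342), a stricter filter (198), limma on log2 TPM (225), no knockout term (313), a Ttr term (260) and Thy1 as a continuous term (362). It was 481 without the 2 libraries whose label and Thy1 side differ, 698 with the 5xFAD label in its place, 0 in the intact libraries and 146 in the knockout libraries. Leaving out 1 library gave 131 to 411. Lower genes, 0 in the fit reported, numbered 2 without a filter, 7 with DESeq2, 1 with limma, 2 without the knockout term, 6 with continuous Thy1, 66 without the 2 libraries, 429 by label and 1 in the knockout libraries, and 0 to 17 on leaving out 1 library. The interaction gave 0 to 5 higher and 0 lower genes on leaving out 1 library.

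In the 10 libraries, lower genes numbered 256 without a filter and 188 with DESeq2. Leaving out 1 of them gave 270 to 540 higher and 6 to 203 lower. By label over 12 libraries there were 1056 higher and 815 lower genes without a filter, 959 lower with DESeq2, and 350 to 901 higher and 74 to 781 lower on leaving out 1 library.

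Replicate numbers were not used as pairs in the fits reported, and whether they pair the libraries was not tested. Deviations from the labelled group means correlated between -0.32 and 0.246 for same-numbered libraries, with 6 of 18 pairs over 0.1. For libraries with different numbers they correlated between -0.377 and 0.294. With the replicate block the split gave 287 higher and 12 lower genes, the 10 libraries 662 and 227, the 12 libraries by label 961 and 626, and the interaction 0.

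None of the 47 called genes named changed direction in the settings where it was tested, and the other called genes were not compared. All 47 called genes named lost the call in the intact libraries. Of the named genes not called, 18 gained a call in at least 1 setting, 64 times in all, most often by label or without the 2 libraries. Among uncalled genes near 0, log2 fold changes changed sign for Mfrp (-0.0017 with DESeq2 size factors, -0.0078 with DESeq2, -0.84 with the replicate block, -1.11 with limma, -0.085 with continuous Thy1, -0.21 in knockout libraries, and -0.54 to 0.38 on leaving out 1 library) and Kcnip3 (0.21 without the knockout term, and -0.146 to 0.035 on leaving out 1 library, the last without Kcnip3 KO 3). They did so too for Nectin1 (0.044 in intact libraries, -0.082 to 0.042 on leaving out 1 library), by label for Aspa (0.12) and Tmem212 (0.21), and in knockout libraries for Cldn11 (-0.036), Slc2a1 (-0.068), Col1a1 (0.0399) and Oaf (-0.012). The cause of these changes was not tested. The limit of the depth, taken as 3 counts, was 0.265 to 0.391 CPM. Low-side medians of Cst7, Itgax, Ccl4, Hcar2, Pdcd1, Tgm1, Ifi204 and Lilrb4a lay within or under that range, so their fold changes depend on few counts.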
